A study of Mus musculus with 50 samples.

Results

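The 25 ATAC-seq libraries made at 14 weeks of age (TP2), of 50 in the series, were divided by the light cycle of the rearing facility (RF) in which the mice had grown up. RF1 and RF2 kept a normal cycle, with lights on by day and a light phase longer than the dark phase, and gave 10 libraries. RF3, RF4 and RF5 kept a reversed 12 h cycle and gave 15 libraries. The division was taken from the RF in each sample title and checked against the study's housing records. No measured value was used to assign a library, but the division was chosen with earlier results of these data known.

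All 25 mice were male C57BL/6JRj mice of 1 supplier, born to dams that were sent pregnant to the 5 RFs. At 8 weeks (TP1) a littermate of each was killed in its RF, whereas the TP2 mice were moved to 1 testing laboratory, kept there together on a reversed 12 h cycle without behavioural testing, and killed at 14 weeks. The light cycle of the TP2 groups is therefore that of rearing, not that at death. By the housing records, RF1 and RF2 also shared an institution, bedding, enrichment, autoclaved water and a diet maker, and of the other RFs only RF4 used a diet of that maker. Light cycle, institution and these other features cannot be told apart with 2 facilities against 3. Each library held 80000 NeuN-positive nuclei, that is, nuclei sorted for the neuronal protein encoded by Rbfox3, from the ventral hippocampus of 1 side, a region known for its part in emotional behaviour. ATAC-seq reads DNA that the Tn5 transposase can reach, so a peak is a stretch of open chromatin such as a promoter or enhancer.

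The circadian clock of mammals is a feedback loop of transcription. CLOCK and its partner ARNTL (BMAL1) bind E-box motifs and drive the Per, Cry and Nr1d genes, whose proteins then repress CLOCK and ARNTL activity or Arntl transcription, while kinases and ubiquitin ligases set the pace of decay of PER and CRY. Light reaches the master clock in the suprachiasmatic nucleus through the retina, and clock genes also cycle in hippocampal neurons.

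Promoter sequences are given for 3 genes on which the results below turn, as RefSeq windows of GRCm38.p6 from 250 bases before to 50 bases after the gene start, read 5′ to 3′ on the strand of the gene. Tmem176b, which encodes a protein with several transmembrane segments and starts beside Tmem176a, held the only peak that passed the test in all 6 pairs of facilities across the division, and this window (chr6:48841088-48841387, minus strand) lay wholly within it. Apoe, which encodes the lipid carrier apolipoprotein E, stood for the promoters higher in RF1 and RF2 (chr7:19699139-19699438, minus strand). Per1, a clock repressor that is also induced by light in the master clock, is shown as the clock promoter with matches to 3 clock motifs (chr11:69098699-69098998, plus strand). Capitals mark these matches, which are the E-box CACGTG, the D-box TTATGNAA and the core of the ROR element, AGGTCA, each read on both strands.
Tmem176b: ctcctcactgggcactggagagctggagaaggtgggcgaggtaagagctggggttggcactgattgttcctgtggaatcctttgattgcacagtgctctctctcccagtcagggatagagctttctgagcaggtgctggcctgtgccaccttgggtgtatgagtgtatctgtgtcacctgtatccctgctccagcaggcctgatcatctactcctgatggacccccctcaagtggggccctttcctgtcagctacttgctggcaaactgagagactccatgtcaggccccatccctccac
Apoe: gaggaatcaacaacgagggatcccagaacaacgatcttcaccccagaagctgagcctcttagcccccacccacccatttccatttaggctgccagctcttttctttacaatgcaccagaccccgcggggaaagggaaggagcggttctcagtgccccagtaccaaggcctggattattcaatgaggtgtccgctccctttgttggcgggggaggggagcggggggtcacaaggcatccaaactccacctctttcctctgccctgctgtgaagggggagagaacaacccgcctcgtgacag
Per1: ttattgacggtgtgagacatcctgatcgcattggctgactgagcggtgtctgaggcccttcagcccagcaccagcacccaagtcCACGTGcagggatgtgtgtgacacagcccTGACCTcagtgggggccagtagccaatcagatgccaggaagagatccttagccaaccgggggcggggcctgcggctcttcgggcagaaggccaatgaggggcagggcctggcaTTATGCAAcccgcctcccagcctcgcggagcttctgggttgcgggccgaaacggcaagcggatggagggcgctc
The windows of Tmem176b and Apoe held none of these letters, nor did those of the clock genes Nr1d1 and Dbp. Of 27025 genes with a promoter window, 8.09% held the E-box, 3.99% the D-box and 18.1% the ROR core in any of their windows, and of all 32851 windows 7.15%, 3.38% and 16.3%. Of the 23 clock genes with a window, 5 held the E-box, 3 the D-box and 5 the ROR core.

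Total counts in peaks ranged from 5111223 to 35510848 in the RF1 and RF2 libraries and from 17761925 to 36401717 in the others. The lowest were RF1 replicate 3 (5111223) and RF2 replicate 3 (7287029), so values of weak peaks are least precise there. For 22 of 25 libraries, the most similar library was from the same RF. The exceptions were RF1 replicate 3, nearest to RF2 replicate 2, and RF1 replicate 5 and RF2 replicate 5, both nearest to RF5 replicate 4, across the light division. Of all 300 pairs of libraries, 11 differed by no more than sampling noise, 7 of them within an RF and 4 between RF1 and RF2 (RF1 replicate 3 with RF2 replicates 1, 3 and 4, and RF1 replicate 5 with RF2 replicate 5). The 3 libraries nearest to another RF were kept under their labels, and results are given with and without them. Because they were picked by their profiles, a larger difference without them is no independent support. The promoter peak of Rbfox3 was open in all RFs, with facility means between 4.82 and 5.19 log2 CPM, and promoter peaks were tested for all 10 pan-neuronal markers.

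With libraries as units, 1163 of 144449 peaks (0.805%) were differential between RF1 and RF2 on the one side and RF3, RF4 and RF5 on the other, by edgeR, where a call required an FDR below 0.01 and a log2 fold change of 0.5 or more in either direction. Without the limit on the fold, 8842 peaks (6.12%) passed. Accessibility was higher in RF1 and RF2 at 693 peaks (0.48%) and lower at 470 (0.325%), with median log2 fold changes of 0.69 and -0.59. The split between directions differed with the method. edgeR with the size factors of DESeq2 called 673 higher and 484 lower, limma on log2 CPM 486 higher and 614 lower, and limma on values centred within regions of 1 Mb 218 higher and 89 lower. The called peaks were weak and narrow, with a median of 1.74 CPM and 794 bp for those higher and 1.95 CPM and 894 bp for those lower, against 4.17 CPM and 1505 bp for all peaks tested.
Of the peaks higher in RF1 and RF2, 13.1% lay within 2 kb of a gene start, 39.5% elsewhere inside a gene and 47.3% outside genes. The corresponding shares were 2.55%, 28.7% and 68.7% of the lower peaks, and 10.8%, 53.8% and 35.4% of all peaks tested. Peaks outside genes were thus a larger part of both sets than of all peaks tested.

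The facilities of the reversed group were not alike at these peaks. At the peaks higher in RF1 and RF2, the median deviation from the mean of the 5 facilities was 0.45 in RF1 and 0.35 in RF2 on the log2 scale, against -0.36 in RF3 and -0.52 in RF5, but it was 0.10 in RF4. At the lower peaks, the medians were -0.44 in RF1, -0.34 in RF2, 0.46 in RF3, 0.30 in RF5 and 0.04 in RF4. RF4 was the reversed facility nearest to RF1 and RF2 at 634 of the 693 higher and 376 of the 470 lower peaks. The share over all peaks was not computed, here or for the counts of RF4 below. Over all peaks tested, deviations of RF4 correlated at 0.23 with those of RF1 and at -0.15 with those of RF2. The other pairs across the division ran from -0.59 to -0.21. Closeness of RF4 to RF1 is thus not particular to the called peaks. The facility means of the light groups did not overlap at 564 of 693 higher peaks (81.4%) and 416 of 470 lower peaks (88.5%), where the same held for 7.58% and 10.2% of all peaks tested. These are the values that the library-level test itself used.

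**Figure D1:**
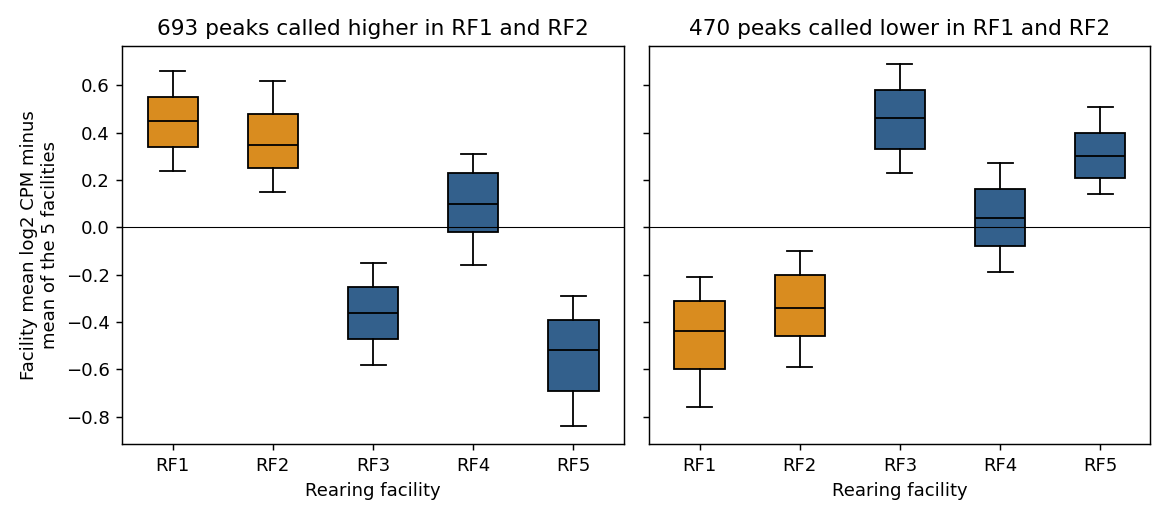
Deviation of each facility mean (log2 CPM) from the mean of the 5 facilities, at the 693 peaks called higher and the 470 called lower in RF1 and RF2. Boxes span the quartiles of the peaks with the median as a line, whiskers run to the outer deciles, orange is the normal and blue the reversed cycle. RF4 lies between RF1 and RF2 on the one side and RF3 and RF5 on the other, with medians of 0.10 and 0.04.

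With the facility as the unit, no peak was differential. The limma test on 5 facility means, 2 against 3, called 0 of 144449 peaks, with a lowest adjusted p of 0.82, and 6034 peaks (4.18%) had an unadjusted p below 0.05. edgeR on the counts summed per facility also called 0, with 4004 peaks at an unadjusted p below 0.05. Leaving out RF1 replicates 3 and 5 and RF2 replicate 5 gave 0 as well, with a lowest adjusted p of 0.44 and 10024 peaks at an unadjusted p below 0.05. An exact permutation test of 2 facilities against 3 has 10 arrangements and cannot give a p below 0.1, so no single peak could pass at this level by that test.

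Tested pair by pair, 1 peak (0.000692%) passed the limits on FDR and fold in all 6 pairs across the division. It was higher in both RF1 and RF2 than in each of RF3, RF4 and RF5 and lay over the shared start of Tmem176a and Tmem176b (chr6:48840584-48841708). No peak passed these limits as lower in all 6 pairs by the same edgeR test. At least 5 of the 6 pairs were passed by 4 higher and 1 lower peaks. Of the 693 peaks called higher in the mean contrast, 45 passed in none of the 6 pairs, 75 in 1, 218 in 2, 149 in 3 and 202 in 4.

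With all libraries, the pair with the most differential peaks lay within the reversed group. Between RF3 and RF4, both reversed, 16036 peaks were differential (11.1%), and between RF4 and RF5 7626 (5.28%), whereas RF3 and RF5 differed at 380 (0.263%) and RF1 and RF2 at 2067 (1.43%). Across the division the counts ran from 441 (0.305%) for RF1 and RF4 to 14643 (10.1%) for RF1 and RF3. RF1 thus differed from RF4 at fewer peaks than from RF2, with which it shared the light cycle. Without RF1 replicates 3 and 5 and RF2 replicate 5, the pairs with the most differential peaks were RF1 and RF3 (31689) and RF1 and RF5 (25596), both across the division, followed by RF3 and RF4 (18234). RF1 and RF2 then differed at 13022 peaks and RF1 and RF4 at 5199.

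**Figure D2:**
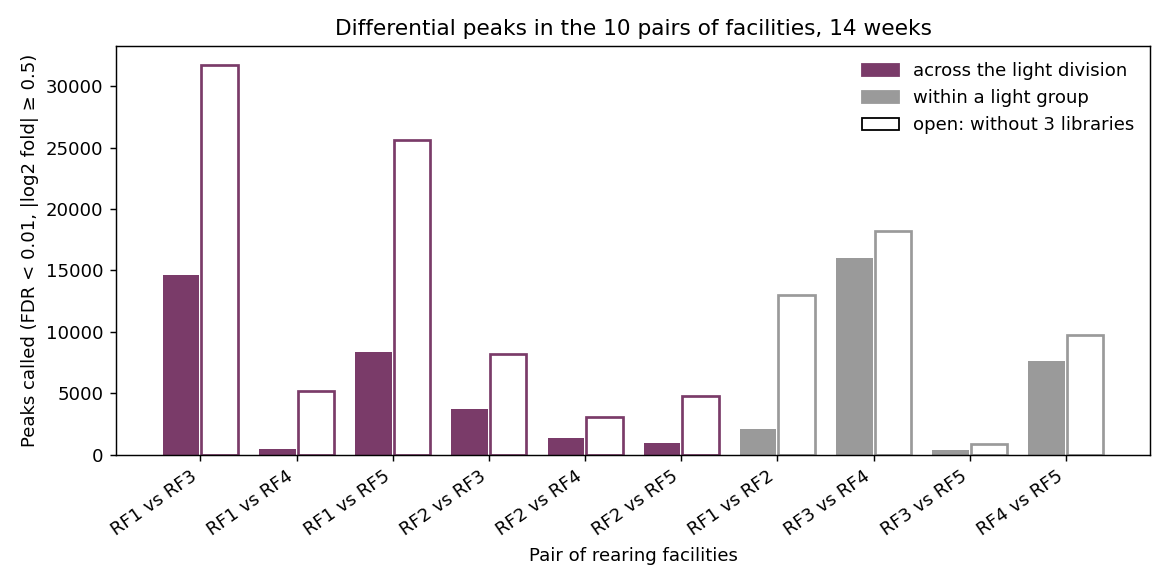
Number of differential peaks (edgeR, with the limits on FDR and fold given in the text) in each of the 10 pairs of RFs at 14 weeks. Filled bars are all 25 libraries, open bars leave out RF1 replicates 3 and 5 and RF2 replicate 5, purple bars are pairs across the light division and grey bars pairs within a light group. The tallest filled bar is RF3 with RF4 (16036), a pair within the reversed group, and the tallest open bar is RF1 with RF3 (31689), a pair across the division.

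Over the whole profile, RF explained 37.7% of the sum of squares of log2 CPM over all peaks (pseudocount 1), and the light division explained 9.14%. Among the 10 ways to set 2 facilities against 3, that was the fifth largest share, with p = 0.5 by the exact permutation test over facilities, one-sided. The largest shares were those of RF3 and RF5 against the rest (18.8%) and of RF1 and RF4 against the rest (18.1%). On values centred within 1 Mb, these shares were 7.68% and 8.03% and that of the light division 7.61%, the third largest, with an exact p of 0.3. Without RF1 replicates 3 and 5 and RF2 replicate 5, the light division explained 14% of the variation, the third largest share, with an exact p of 0.3.

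**Figure D3:**
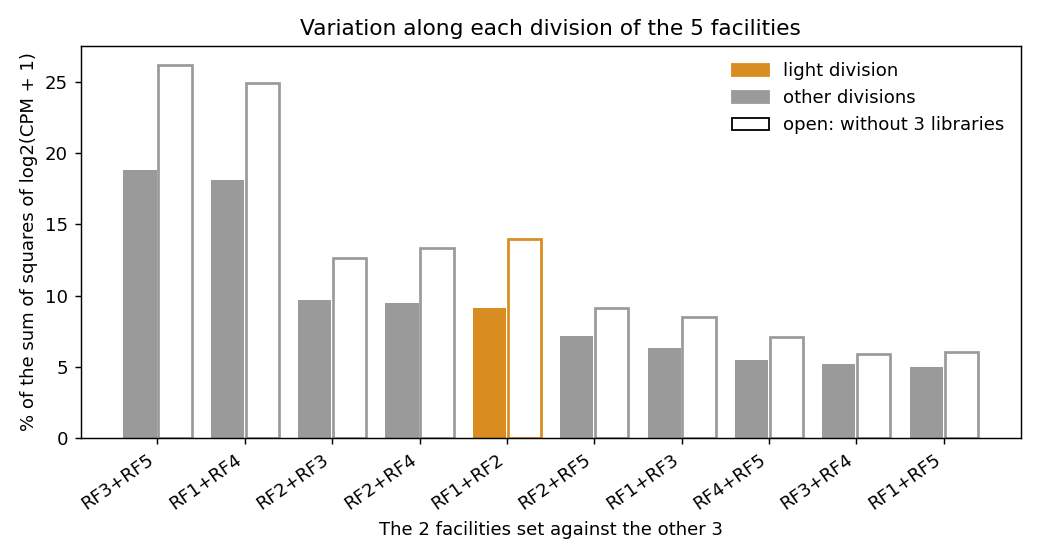
Share of the sum of squares of log2(CPM + 1) that lies between the 2 named facilities and the other 3, for the 10 possible divisions. Filled bars are all 25 libraries, open bars leave out RF1 replicates 3 and 5 and RF2 replicate 5, and orange marks the light division, at 9.14% and 14%.

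Among promoters, taken as 1 peak per gene within 2 kb of its start, 92 of 15030 (0.612%) were differential, 80 (0.532%) higher in RF1 and RF2 and 12 (0.0798%) lower. Higher promoters included those of lipid carriers (Apoe, Apoc1), of transcription factors (Olig2, Prdm16) and of secreted and membrane proteins (Metrn, Gpr17, Fxyd1). Facility means of the light groups did not overlap at 67 of the 80 and at all 12, where 15.7% and 2.82% of all promoters had means apart in these directions. RF4 was the nearest of the reversed facilities at 75 of the 80 and 9 of the 12, and the lowest facility was RF3 or RF5 at all 80. The median log2 fold change over all promoters was 0.09, so a small positive value does not set a promoter apart.

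The peak at Tmem176a and Tmem176b had a facility mean of 1.76 log2 CPM in both RF1 and RF2, against 0.82 in RF3, 0.96 in RF4 and 0.88 in RF5. Its lowest, median and highest libraries were 1.22, 1.75 and 2.15 in RF1 and RF2 and 0.28, 0.99 and 1.12 in the reversed group, so that no library of one group reached the other. This was the only peak named here without overlap of libraries. The log2 fold change was 0.90 ± 0.12 (SE, adjusted p = 4.7e-08 by edgeR). On facility means it was 0.88 ± 0.17 (SE, adjusted p = 1.0 by limma), and the exact permutation p of 0.1 is the smallest possible.

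Metrn encodes meteorin, a secreted protein that acts on glial differentiation and axon growth. Its promoter peak (chr17:25795669-25796572) had 2.50 ± 0.03 log2 CPM (mean ± SD, n = 2 facilities) in the normal and 1.66 ± 0.43 (n = 3 facilities) in the reversed group. The lowest, median and highest libraries were 1.46, 2.67 and 2.95 against 1.15, 1.56 and 2.37. RF4 (2.15) was well above RF3 (1.33) and also above RF5, and the libraries of the groups overlapped. The log2 fold change was 0.88 ± 0.10 (SE, adjusted p = 9.6e-09 by edgeR).

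The Apoe promoter peak (chr7:19698312-19699958), which holds the window printed above, had 2.99 ± 0.02 log2 CPM (SD, n = 2 facilities) against 2.23 ± 0.33 (n = 3 facilities). Libraries ran from 2.30 over a median of 3.09 to 3.30 in RF1 and RF2, and from 1.68 over 2.12 to 3.09 in the reversed group, with RF4 again the highest of the latter at 2.62. The log2 fold change was 0.75 ± 0.10 (SE, adjusted p = 1.3e-06 by edgeR). The neighbouring Apoc1, another apolipoprotein gene, had 1.65 and 1.41 log2 CPM in RF1 and RF2 and 0.33, 1.30 and 0.30 in RF3, RF4 and RF5, with a log2 fold change of 0.96 ± 0.15 (SE). The start of Apoc1 was inferred rather than given by the annotation. On values centred within 1 Mb, Apoe (0.49) and Apoc1 (0.62) were no longer called.

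Olig2, a transcription factor of the oligodendrocyte lineage, had 1.06 ± 0.17 log2 CPM (SD, n = 2 facilities) at its promoter (chr16:91224878-91225864) against 0.25 ± 0.43 (n = 3 facilities). Its libraries ran from -0.04 over 1.12 to 1.84 and from -1.19 over 0.35 to 1.19. The log2 fold change was 0.90 ± 0.15 (SE, adjusted p = 1.9e-05 by edgeR), with RF5 the lowest facility. Prdm16, a zinc finger regulator of neural stem cells and brown fat, was higher by 0.67 ± 0.09 (SE), with 3.22 and 2.99 log2 CPM in RF1 and RF2 against 2.35, 2.63 and 2.32. On values centred within 1 Mb, neither Olig2 (0.67) nor Prdm16 (0.41) was called, while Metrn (0.63) and the Tmem176a and Tmem176b peak (0.94) were.
The remaining peaks named as higher had log2 fold changes of 0.83 to 0.93. They were at Zfp36l1, which encodes an RNA-binding protein that promotes mRNA decay (0.93), Arap1, a regulator of Arf GTPases (0.86), Klhdc7a (0.84), Gpr17, a receptor of maturing oligodendrocytes (0.84, start inferred), and Fxyd1, a regulator of the sodium pump (0.83). In each of these 5, the lowest RF1 or RF2 library was below the highest library of the reversed group. Arap1 (0.60) and Fxyd1 (0.52) lost their calls on values centred within 1 Mb.

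**Figure D4:**
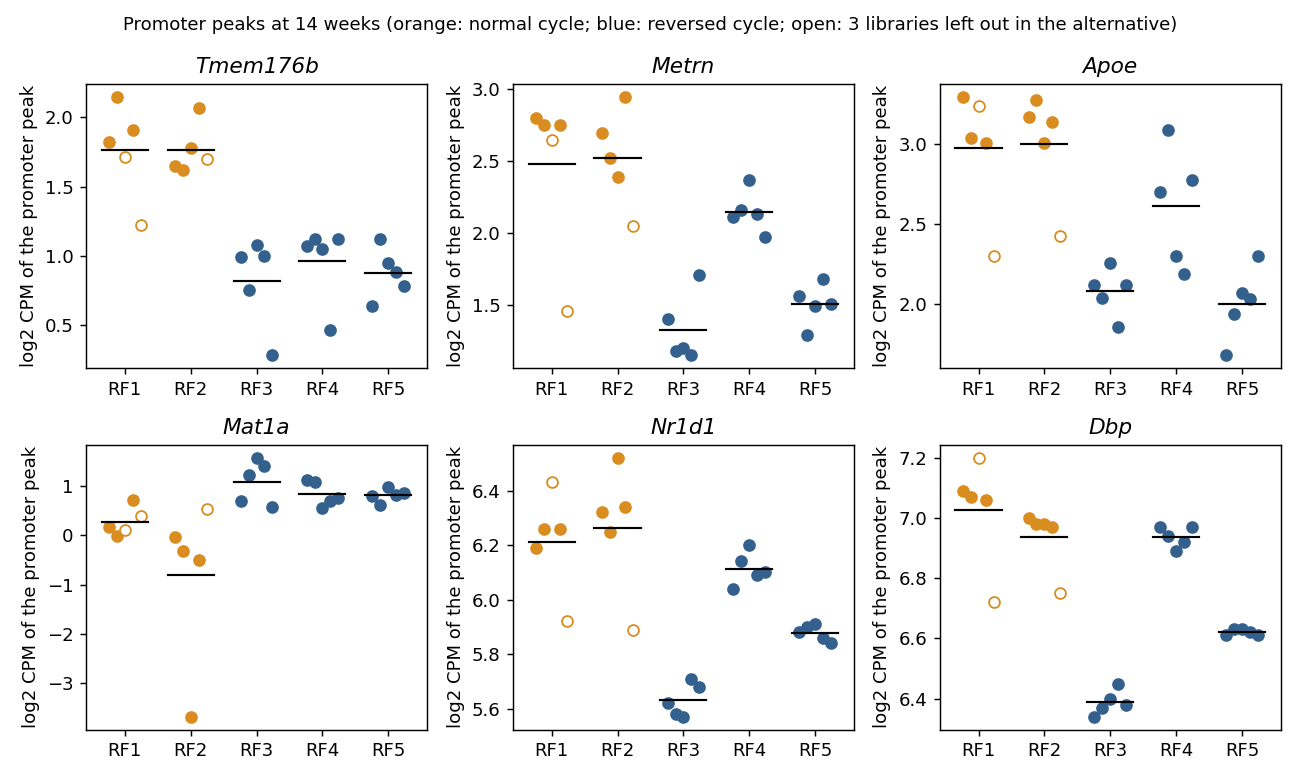
log2 CPM of 6 promoter peaks in the 25 libraries by RF, with the facility mean as a bar. Orange is the normal and blue the reversed rearing cycle, and open points are RF1 replicates 3 and 5 and RF2 replicate 5. Tmem176b is the only 1 of the 6 without overlap between the groups, and RF4 has the highest mean of the reversed facilities at Tmem176b, Metrn, Apoe, Nr1d1 and Dbp.

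Of the promoters lower in RF1 and RF2, 10 were named by the rule. They include genes known from liver, kidney and epithelia, and all had low values. Mat1a, the liver methionine adenosyltransferase (chr14:41104733-41105446, start inferred), had -0.26 ± 0.76 log2 CPM (SD, n = 2 facilities) against 0.92 ± 0.15 (n = 3 facilities), with libraries from -3.68 over 0.05 to 0.71 and from 0.55 over 0.82 to 1.57. The library at -3.68, RF2 replicate 3, held 0 counts in a total of 7287029. The log2 fold change was -0.91 ± 0.17 (SE, adjusted p = 7.8e-05 by edgeR).
Cldn1, a tight junction protein, had 0.97 and 1.45 log2 CPM in RF1 and RF2 and 2.20, 1.71 and 1.77 in RF3, RF4 and RF5, with a log2 fold change of -0.57 ± 0.11 (SE). Ankrd22 fell by 0.77 ± 0.15 (SE), with RF4 (0.18) next to RF1 (0.12) and RF2 (-0.13). At Triml2 and Ankub1, RF1 replicate 3 held 0 counts, and the log2 fold changes were -0.55 and -0.54. Arl14ep (-0.66), Adgrf2, an adhesion receptor (-0.62), Bpifa3 (-0.61), Ces1c, a carboxylesterase (-0.59), and Slc6a18, an amino acid transporter of the kidney (-0.57), were the others. The calls were close to the limit. With each library left out in turn, Slc6a18 kept its call in 10 of 25 cases (log2 fold changes from -0.67 to -0.52), Adgrf2 and Ces1c in 14 each (-0.81 to -0.53 and -0.66 to -0.49), Ankub1 in 15 (-0.60 to -0.43) and Bpifa3 in 20 (-0.70 to -0.55), and Triml2 lost it only without RF1 replicate 3 (-0.49). Without the replicate block, Adgrf2 (-0.54), Bpifa3 (-0.57), Ces1c (-0.51) and Ankub1 (-0.48) were not called. On values centred within 1 Mb, Ankrd22 (-0.62), Bpifa3 (-0.65) and Cldn1 (-0.58) were called and the other 7 were not. Plek, named for its facility-level p, had a log2 fold change of -0.49 ± 0.09 (SE) and did not reach the fold required for a call.

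Some markers of glia were called in the contrast of the light groups, where 0.532% of all promoters were called higher and 0.0798% lower. Of 8 astrocyte markers tested of 9, 2 were higher, Gfap by 0.59 ± 0.11 and Aldh1l1 by 0.68 ± 0.16 on the log2 scale (SE, adjusted p = 0.00018 and 0.0017 by edgeR), while Aqp4, Slc1a2, Slc1a3, Gja1, S100b and Sox9 ran from -0.02 to 0.11. Of 5 oligodendrocyte markers tested of 11, only Olig2 was called, while Cnp (0.35), Sox10 (0.32) and Mbp (0.01) were not. None of 6 microglia and 5 vascular markers was called by edgeR or DESeq2. At an unadjusted p below 0.05, 1 of each was higher, beside 49.9% of all promoters in either direction. At Gfap, RF4 (1.99 log2 CPM) lay above RF2 (1.79), so its facility means overlapped between the light groups. Gfap lost its call without RF1 (0.41), RF3 (0.49) or RF5 (0.35), and Aldh1l1 without RF2 (0.67), RF3 (0.66) or RF5 (0.46). Gfap also fell short of the fold without RF1 replicate 2 (0.48), and Aldh1l1 of the FDR without RF2 replicate 4 (0.57). Neither Gfap nor Aldh1l1 was called on values centred within 1 Mb (0.30 and 0.59). Summed over the 8 astrocyte promoters, libraries ran from 67.8 to 79.5 CPM in RF1, 71.4 to 82.6 in RF2, 67.4 to 75.2 in RF3, 67.8 to 70.5 in RF4 and 69.4 to 71.5 in RF5. The 5 oligodendrocyte promoters summed to 35.9 to 44.7, 36.3 to 39.9, 31.0 to 35.2, 33.9 to 38.3 and 34.2 to 39.9 CPM, in the same order. The sums of both lists overlapped between the light groups. Among defining markers, Mog, Mag, Mobp, Olig1, Pdgfra, Gjb6, Cx3cr1 and Pecam1 had no promoter peak that was tested. In bulk nuclei, more nuclei of a type and more open chromatin per nucleus cannot be told apart, and the part of other cell types in the promoters above was not tested.

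Of 29 clock genes, 28 had a tested promoter peak and none was called by edgeR, beside 0.612% of all promoters. At that share, a list of this size would be likely to hold no call. At an FDR below 0.01 with any fold, 11 were higher and none was lower. All 28 log2 fold changes were positive, with a median of 0.13 beside 0.09 over all promoters, of which 74.0% were positive. Of all promoters, 23.9% were higher at that FDR with any fold. By an unadjusted p below 0.05, 19 of the 28 were higher and 0 lower, beside 49.9% of all promoters in either direction, and DESeq2 also called 0 of the 28. The highest values were at the repressors and output factors, and none exceeded 0.36. Facility means did not overlap at 9 of the 28, all higher, as at 15.7% of all promoters in that direction. RF3 was the lowest facility at 19 of the 28 and at 56.3% of all promoters.

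Nr1d1 (REV-ERBα), the repressor of Arntl, had 6.21 and 6.27 log2 CPM in RF1 and RF2 and 5.63, 6.11 and 5.88 in RF3, RF4 and RF5 (chr11:98772985-98775885). The libraries ran from 5.89 over 6.26 to 6.52 in the normal and from 5.57 over 5.88 to 6.20 in the reversed group. The log2 fold change was 0.36 ± 0.04 (SE, adjusted p = 1.3e-09 by edgeR) with libraries and 0.37 ± 0.15 (SE, adjusted p = 1.0 by limma) with facilities as units.
Dbp, an output factor that binds D-boxes, had 7.03 and 6.94 against 6.39, 6.94 and 6.62 log2 CPM, so that RF4 had the same mean as RF2. Its log2 fold change was 0.33 ± 0.03 (SE), and on facility means 0.33 ± 0.17. Per1, whose promoter window with 3 motif matches is printed above, had 5.33 in both RF1 and RF2 and 4.67, 5.26 and 5.10 in the others, with a log2 fold change of 0.32 ± 0.04 (SE). Its libraries ran from 5.10 over 5.35 to 5.52 and from 4.62 over 5.10 to 5.33.

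Among the other repressors, Cry2 (0.20), Per3 (0.18) and Nr1d2 (0.14) were higher at an FDR below 0.01, and Per2 (0.13), Bhlhe41 (0.14), Ciart (0.11), Bhlhe40 (0.10), Timeless (0.10) and Cry1 (0.06) were not. Of the activators, Arntl had a log2 fold change of 0.27 ± 0.04 (SE, adjusted p = 5.7e-07 by edgeR), with 5.57 and 5.56 log2 CPM in RF1 and RF2 and 5.06, 5.40 and 5.41 in the others. Clock (0.02), Npas2 (0.11), Rora (0.02) and Rorb (0.09) were not past the FDR. The kinases Csnk1d (0.27), Csnk1e (0.19) and Gsk3b (0.15), which phosphorylate PER and CRY proteins or their partners, were past it, and the ligase subunits Fbxl21 (0.09), Btrc (0.14) and Fbxw11 (0.08) were not. Of the output factors, Tef (0.25) was past it beside Dbp, and Hlf (0.03) and Nfil3 (0.04) were not.
Leaving out RF3 lowered Nr1d1 to 0.24, Dbp to 0.20, Arntl to 0.15 and Per1 to 0.14, with adjusted p of 0.00088, 0.0021, 0.036 and 0.083. Without RF1 replicates 3 and 5 and RF2 replicate 5, the values were 0.42 for Nr1d1, 0.37 for Dbp, 0.29 for Arntl and 0.39 for Per1, still under the fold required. On values centred within 1 Mb, Nr1d1 had 0.18, Arntl 0.21, Dbp 0.10, Per1 0.09 and Csnk1d 0.06. Without the 3 libraries, 12 of the 28 were higher at an FDR below 0.01, as were 34.4% of all promoters.

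**Figure D5:**
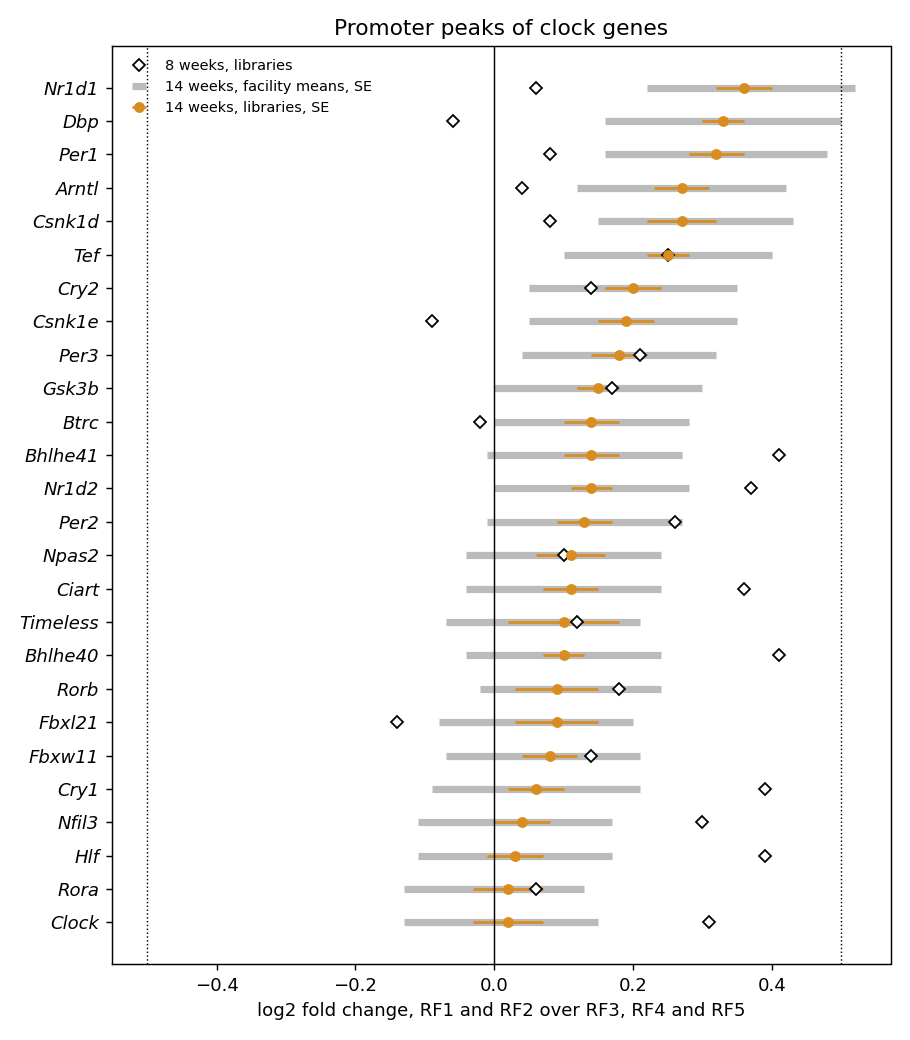
log2 fold change of the promoter peaks of 26 clock genes, RF1 and RF2 over RF3, RF4 and RF5. Orange points with SE are libraries at 14 weeks, grey bars the SE about the value on facility means, open diamonds the same contrast at 8 weeks, and dotted lines the fold required for a call. All 26 orange points lie between 0.02 and 0.36.

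In the lists for light and day-length signalling, immediate early genes, glucocorticoid signalling, glutamate, GABA and monoamine receptors and synaptic adhesion and scaffold proteins, no promoter was called by edgeR or by DESeq2. Since edgeR called 0.612% of all promoters, each list of such a size would be likely to hold no call. Over all promoters, 23.9% were higher and 0.459% lower at an FDR below 0.01 with any fold, and 6770 of 15030 were higher and 727 lower at an unadjusted p below 0.05. Of 21 immediate early genes, 11 were higher at an FDR below 0.01 with any fold and none lower, with a median log2 fold change of 0.15, and 14 were higher and 1 lower at an unadjusted p below 0.05. The largest was Npas4, a neuronal activity-dependent transcription factor, at 0.35 ± 0.04 (SE), with 5.28, 5.18, 4.60, 5.14 and 4.88 log2 CPM in RF1 to RF5. Of 17 genes of light and day-length signalling, 3 were higher and 1 lower at the same FDR, with a median of -0.03, and 5 higher and 3 lower at an unadjusted p below 0.05. The lower one was Adcyap1, which encodes the retinal transmitter PACAP, at -0.34 ± 0.08 (SE), with 2.46, 2.56, 3.06, 2.80 and 2.92 log2 CPM. Npas4 and Adcyap1 were picked for mention after their values were seen. For the 24 synaptic adhesion and scaffold genes, 8 were higher at that FDR with any fold, as in the counts that follow, and the median was 0.14, the largest value being 0.32, at Lrrc4b. Of 18 ionotropic glutamate receptor genes 5 were higher (median 0.09), of 8 metabotropic ones none (median 0.01), and of 24 monoamine receptor genes 2 were higher and 2 lower (median 0.03). The 12 glucocorticoid genes (3 higher, median 0.03), 14 GABA receptor genes (2 higher, median 0.00) and 10 pan-neuronal markers (2 higher, median -0.00) had medians below that of all promoters. Markers of pyramidal neurons (4 of 10 higher, median 0.12), dentate granule cells (1 of 10, median 0.09), interneurons (2 of 12, median 0.10) and the ventral or dorsal hippocampus (0 of 10, median -0.02) held no call either, and at an unadjusted p below 0.05 between 2 and 5 of each were higher and, in the ventral or dorsal list, 2 were lower. Lrrc4b was also picked after its value was seen.

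The same contrast in the littermates killed in their RFs at 8 weeks gave 10859 differential peaks (7.52%), 6873 higher (4.76%) and 3986 lower (2.76%) in RF1 and RF2. The limma test on 5 facility means called 3187 (2.21%). That test borrows variance across peaks, and an exact permutation test of these facilities could not give a p below 0.1 at 8 weeks either. TP and sequencing batch cannot be told apart, since each TP was amplified and sequenced in 1 batch. Of the 693 peaks higher at 14 weeks, 342 (49.4%) had the same direction at 8 weeks, where 50.4% of all peaks were positive, and 39 were called in the same and 36 in the opposite direction. Of the 470 lower peaks, 98 (20.9%) had the same direction, 6 were called in the same and 66 in the opposite direction, and their median log2 fold change at 8 weeks was 0.22. The contrast itself changed between the TPs at 502 of the 693 and 392 of the 470 peaks by the interaction test, which called 16.6% of all peaks. The 693 and 470 peaks were chosen by their contrast at 14 weeks, which also enters this test. Their larger share is therefore no separate finding.
At 8 weeks, Bpifa3 (-0.37 ± 0.12, SE), Aldh1l1 (0.23 ± 0.08), Zfp36l1 (0.14 ± 0.1) and Apoc1 (0.05 ± 0.08) had the sign they had at 14 weeks, with none called. The same held for Olig2 and the Tmem176a and Tmem176b peak. All other called promoters named above had the opposite sign, and Ankub1 was called in that direction (0.75 ± 0.09). The Tmem176a and Tmem176b peak had 0.09 ± 0.08 (SE), Metrn -0.00 ± 0.06, Apoe -0.12 ± 0.05, Olig2 0.03 ± 0.09 and Prdm16 -0.15 ± 0.05. Among clock genes, Bhlhe40 and Bhlhe41 had log2 fold changes of 0.41 ± 0.04 and 0.41 ± 0.03 (SE) at 8 weeks and of 0.10 and 0.14 at 14 weeks. Nr1d1 and Dbp, the largest at 14 weeks, had 0.06 ± 0.04 and -0.06 ± 0.05 at 8 weeks. Tef had 0.25 at both TPs.

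When RF1 replicates 3 and 5 and RF2 replicate 5 were left out, 5239 peaks (3.63%) were differential, 2236 higher (1.55%) and 3003 lower (2.08%), and 1137 of the 1163 peaks above (97.8%) were called in the same direction. The peaks that passed in all 6 pairs across the division then numbered 69 (0.0478%), 45 higher and 24 lower. Of the 45, 5 lay within 2 kb of a gene start, among them those at Tmem176b, Metrn, Apoe and Tcf7l2, an effector of Wnt signalling. Others lay farther from a start, such as 2 peaks nearest to Fgfr3, a growth factor receptor, 2 nearest to Olig2 and 1 each nearest to Notch1, Slc7a11, a cystine transporter, and Gjb2, a connexin. These neighbours were picked after the values were seen, and the nearest gene need not be the one a peak acts on.
The largest log2 fold change among the 45 was 2.06 ± 0.24 (SE), at chr2:173419989-173420557, outside genes, with 0.39 and 0.35 log2 CPM in RF1 and RF2 and -1.32, -1.18 and -1.99 in the others. RF4 was the nearest of the reversed facilities at 43 of the 45 and 13 of the 24. None of the 24 lower peaks lay within 2 kb of a start. The largest fold among them was at chr17:55670543-55670750, inside a gene, with -1.38 and -1.83 log2 CPM in RF1 and RF2 against -0.35, -0.09 and -0.26, and a log2 fold change of -1.34 ± 0.26 (SE). At 8 weeks, the median log2 fold changes of the 45 and the 24 peaks were 0.12 and 0.05. Among promoters, 218 were higher (1.45%) and 50 lower (0.333%) without the 3 libraries, and Tmem119, a microglial marker, was then called beside Gfap, Aldh1l1 and Olig2.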

How the data were processed

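ATAC-seq libraries of NeuN-positive nuclei from the ventral hippocampus were made for 5 RFs at 2 TPs, with 5 libraries per group, and the 25 libraries of TP2 were analysed here beside the 25 of TP1. The authors aligned the reads with Bowtie2 to the mouse genome of Ensembl (GRCm38), marked duplicates with Picard 1.140, called broad peaks in each sample with MACS2 2.1.4, kept peaks found in most samples of a group, merged them over groups and counted reads per merged peak. The deposited raw counts per peak are not normalized and were the values used. The authors' tests with DESeq2 were not used.

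The main test was the robust quasi-likelihood F-test of edgeR 4.0.16, run in R 4.3.3 after filterByExpr by RF and TMM scaling, with RF and replicate number as terms. The contrast was the mean of RF1 and RF2 minus the mean of RF3, RF4 and RF5, and a call required a Benjamini-Hochberg FDR below 0.01 and a log2 fold change of 0.5 or more in either direction, as in the study. With facilities as units, limma 3.58.1 (trend, robust) was fitted to the mean log2 CPM per facility (prior count 2). Replicate number was used in place of the sorting batch, since each batch held 1 sample per RF. The labels do not name the batch, so that the number matches it is an assumption. The same contrast was fitted at TP1, and the interaction over all 50 libraries. P-values with libraries as units measure the spread between mice of these 5 facilities and not between facilities. Both reads of a fragment can be counted, so the noise of a pair of libraries was set at 2.04 times the binomial variance over peaks with 500 to 5000 counts on average.

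Gene starts came from RefSeq promoter windows of GRCm38.p6 for 17492 genes and were otherwise inferred from the gene end with more counts for 3110, which was right for 81.5% of the 11892 genes where this could be checked. A promoter peak lay within 2 kb of a start, with 1 peak per gene, that with the smallest p, and a mean of at least 0 log2 CPM. Named were the 10 promoter peaks with the largest change in each direction among those called with facility means apart, the 4 in each direction with the smallest facility-level p, up to 3 in each direction called in all 6 pairs, every clock gene, and called members of 21 gene lists. Values of some list members are not reported here, although counts over the lists hold them. The light groups, the lists and the libraries left out were chosen with earlier results of these data known. The tests were tested on simulated data. DESeq2 1.42.0, the R package data.table in version 1.17.8, Python 3.11.15, pandas 2.3.3 and numpy 2.4.6 served the other steps. Alternatives were size factors, filters, DESeq2, the replicate block, left-out libraries and RFs, regional means and a random RF block.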

Additional observations from a re-analysis of the deposited data

Results flagged for a closer look

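Values of single libraries far from the others of their RF, by Dixon's test at 95%, were found in 21 of 255 groups of 5 libraries examined (8.24%), where chance gives about 1 in 20. RF2 replicate 3 had the lowest total count of RF2, 7287029. RF1 replicate 5 was lowest at Metrn (1.46 log2 CPM), Klhdc7a (1.11), Prdm16 (2.35), Dbp (6.72) and Aldh1l1 (-0.29), and RF2 replicate 5 was lowest at Apoc1 (-0.29), Prdm16 (2.38) and Dbp (6.75). These 2 libraries are those nearest to a library of RF5. RF1 replicate 3 was lowest at Triml2 and Ankub1 (-3.68 log2 CPM at both, from 0 counts) and Fbxw11 (5.06) and highest at Csnk1d (5.18), and RF2 replicate 3 was lowest at Mat1a (-3.68, from 0 counts). In the reversed group, RF5 replicate 3 was highest at Zfp36l1 (0.63), and the lowest were RF4 replicate 4 at Tmem176a and Tmem176b (0.46) and Arntl (5.31), RF3 replicate 4 at Arap1 (-0.18), RF3 replicate 1 at Ciart (5.15) and RF3 replicate 2 at Gfap (0.66). RF2 replicate 1 was lowest at Rorb (3.17).

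The light contrast differed between the TPs by the interaction test at 23950 peaks, and at 22 of the 52 peaks chosen by the naming rule. The promoters listed next were named for their TP2 values, which also enter this test, so a difference there is no separate finding. In log2 units, the difference of TP2 minus TP1 was 0.92 at Apoc1, 0.79 at Zfp36l1, 0.81 at Tmem176a and Tmem176b, 0.87 at Olig2, 0.89 at Metrn, 0.95 at Arap1, 1.0 at Klhdc7a, 1.14 at Gpr17, 1.05 at Fxyd1, 0.81 at Prdm16, 0.87 at Apoe and 0.73 at Gfap. Among the lower promoters it was -0.98 at Mat1a, -1.08 at Ankrd22, -0.89 at Arl14ep, -0.73 at Adgrf2, -0.75 at Ces1c, -0.65 at Slc6a18, -0.66 at Cldn1, -0.79 at Triml2, -1.28 at Ankub1 and -0.56 at Plek. TP and sequencing batch cannot be told apart.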

How the results depend on the processing

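With 2 facilities against 3, the facility-level count was 0 under every alternative run, and the lowest adjusted p was 0.028, on values centred within regions of 1 Mb. Depth limits weak peaks most in RF1 replicate 3 and RF2 replicate 3. The 1163 peaks called with libraries as units became 8842 with no minimum fold, 307 on these centred values (71.0% higher), 309 with libraries within sampling noise summed and no block (71.8% higher), 0 with RF as a random block in limma (8346 peaks at an unadjusted p below 0.05) and 5239 without RF1 replicates 3 and 5 and RF2 replicate 5. They became 813 without RF1, 3611 without RF2, 327 without RF3, 4773 without RF4 and 488 without RF5. With each library left out the count ran from 807 to 2656, the highest without RF1 replicate 5, and with each replicate number left out from 413 to 4088, the highest without replicate 5. DESeq2 gave 1235, its size factors in edgeR 1157, no filter 1161 and limma on log2 CPM, chosen after seeing the data, 1100. The cause of these differences was not tested.

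The peak called in all 6 pairs became 2 with no minimum fold and 69 without the 3 libraries, and from 0 to 7 with each library left out, the highest without RF1 replicate 5. It was 0 without RF1 replicate 1, 2 or 4, RF2 replicate 4 or RF4 replicate 1, 2, 3 or 4. Of the 52 named peaks, 23 were called, and 8 on the values centred within 1 Mb (Apoe, Apoc1, Olig2, Prdm16, Gfap and Aldh1l1 among those lost), 12 without RF3, 15 without RF5 and 19 to 24 with each library left out. Over the 52 named peaks and the alternatives run on them, no called value changed sign, and 31 values not called did. Signs of the other peaks were not compared. Deviations of libraries with the same replicate number correlated at 0.00214 on average over 50 pairs, with 1 pair over 0.1, so the number is not shown to pair them. Without the replicate block, 1091 peaks were called at TP2, 10933 at TP1 and 23888 for the interaction, and 4 named peaks lost their call (Adgrf2, Bpifa3, Ces1c and Ankub1).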
